A study of Citrus sinensis with 6 samples.

Results

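Pectin-modifying and wall-loosening genes were examined in the albedo, the white inner layer of the peel, of sweet orange fruit (Citrus sinensis). They are 3 pectinesterase genes (PECS-2.1, PECS-1.1 and PME4), a gene whose listed synonym PMEI/InvI names a pectin methylesterase or invertase inhibitor (LOC102624882), a polygalacturonase gene (PG) and an expansin gene (EXP2). The members were chosen by gene name, with earlier results of these data known. The 6 genes, with 7 transcripts, were taken from 31688 genes and 59106 transcripts in the deposited tables. There were 3 libraries from fruit given the antagonist yeast Rhodotorula mucilaginosa with 0.2 mM of the plant defence hormone salicylic acid (the hormone libraries), and 3 from fruit given only the yeast (the yeast-only libraries). All 6 were taken from excised albedo 3 days after inoculation, and the yeast is common to both groups, so a difference between them is one between the yeast with and without the hormone. The labels give no cultivar, no untreated fruit is among the groups, and separate fruit are not mentioned. P-values therefore set a difference only against the spread among these samples, and that spread may be technical. The tissue label was not checked against markers, because the files name few genes. In such bulk tissue, fewer cells of a type and less RNA per cell cannot be told apart.

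Pectin is laid down in plant walls in a methyl-esterified form. Pectinesterases (pectin methylesterases) remove the methyl groups, which lets the chains be cross-linked by calcium or be cut by polygalacturonases, and small inhibitor proteins bind pectinesterases and block them. Expansins loosen walls without cutting the polymers. The albedo is a pectin-rich tissue, and such genes are known from studies of fruit softening and of the entry of moulds that digest pectin. The stated aim of the series was to examine expression of defence genes in the fruit when salicylic acid enhances the yeast.

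Library depth, read from the ratio of coverage to FPKM (fragments scaled by transcript length and library size), was 4.78 to 5.24 gigabases with salicylic acid and 4.11 to 4.87 gigabases in the yeast-only libraries. Between 17017 and 17586 genes per library had at least 1 FPKM. A gene value is the sum of its transcripts' FPKM. Tests were run with limma on log2(FPKM + 1) over the 17355 genes with a mean of at least 1 FPKM, and all 6 members passed that filter. Differences below are on this log2 scale, with salicylic acid minus the yeast alone, and understate the change of low genes. Differences in a ratio of levels are instead in log2 of the FPKM ratio, with no 1 added.

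The members covered a wide range of levels. By mean FPKM over the 6 libraries the order was PECS-2.1 at 615, EXP2 at 266, the inhibitor gene at 67.7, PECS-1.1 at 42.0, PG at 14.3 and PME4 at 1.097 FPKM. FPKM is a level per length, so these can be set beside each other. PECS-2.1 ranked 149 of the 17355 tested genes by mean level and EXP2 ranked 494, while PME4 ranked 17076. PECS-2.1 stood above EXP2 in all 6 libraries, but by a factor of 1.04 in yeast-only replicate 1, where these neighbours in the order were nearly level. The inhibitor gene and PECS-1.1 did not keep their order: the inhibitor was the higher in 5 of 6 libraries and the lower in hormone replicate 2. The other neighbours, EXP2 over the inhibitor, PECS-1.1 over PG and PG over PME4, kept their order in 6 of 6 libraries, with factors of at least 2.77, 1.86 and 8.26. The plot of levels by library shows all 6 genes.

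**Figure D1:**
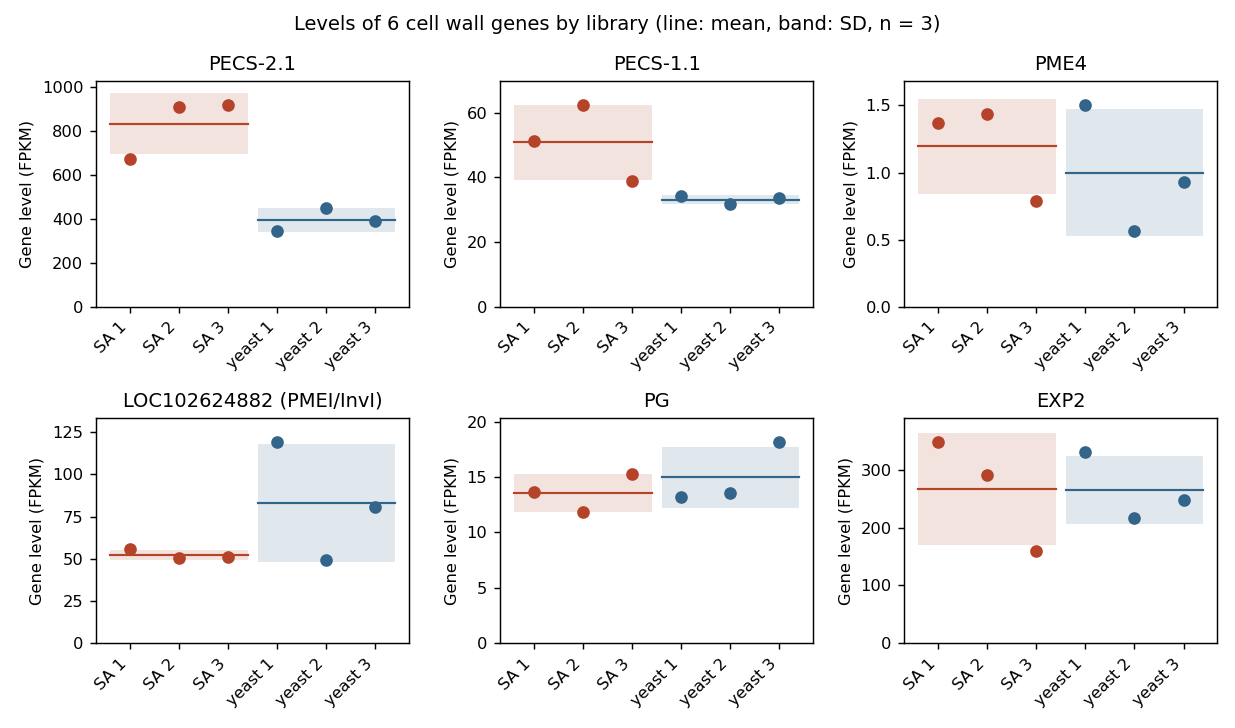
Gene level in FPKM (y axis, linear from 0, a scale of its own in each panel) in each of the 6 libraries (x axis, SA for yeast with salicylic acid); points are libraries, lines group means and bands SD (n = 3 each). PECS-2.1 lies between 675 and 918 FPKM in the hormone libraries and between 343 and 451 FPKM without, and in PME4, the inhibitor, PG and EXP2 the groups overlap.

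PECS-2.1, the most abundant of the pectinesterase genes, was at a higher level in every hormone library than in any yeast-only library. It stood at 675, 911 and 918 FPKM in hormone replicates 1 to 3 and at 343, 451 and 392 FPKM in yeast-only replicates 1 to 3. The lowest value with salicylic acid lay well clear of the highest without it. The means were 835 ± 139 and 395 ± 54.2 FPKM (SD, n = 3 each), 2.11 times as high with salicylic acid. The difference was 1.07 (SE 0.18, 95% interval 0.67 to 1.47). Its unadjusted p of 0.00021 ranked 5 of 17355 in limma, but adjusted by the Benjamini-Hochberg method over all genes it was 0.531, so the gene did not pass the threshold of 0.05. The gene has 1 transcript in the tables, NM_001288846.1, of 2 exons and 1753 bases, on the minus strand of the scaffold NW_006257073.1 from 323645 to 326169. These are coordinates as deposited, in a genome build not given in the sources used here. Mean coverage per base was 1411 to 4772 reads over the libraries, the deepest of the members. As a single feature among 26605 transcripts it had an adjusted p of 0.305 in limma.

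PECS-1.1, the other pectinesterase gene of clear expression, also had groups that did not overlap, by a narrower margin. It stood at 51.3, 62.3 and 39.0 FPKM in hormone replicates 1 to 3 and at 34.1, 31.6 and 33.7 FPKM in the yeast-only libraries. The yeast-only libraries were close together, and hormone replicate 3 came nearest to them. The means were 50.9 ± 11.7 and 33.2 ± 1.33 FPKM (SD, n = 3 each), a ratio of 1.53. The difference was 0.58 (SE 0.17, 95% interval 0.19 to 0.97), and limma gave an unadjusted p of 0.00852 and an adjusted p of 0.855. The fit takes the spread as equal in both groups, while the SDs were 11.7 and 1.33 FPKM. Its 1 transcript, NM_001288930.1, has 2 exons and 1967 bases and lies on the plus strand of NC_023046.1 from 19880031 to 19883349.

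PME4, named as a pectin methylesterase, was near the lower limit of the tested range. Its levels were 1.37, 1.43 and 0.790 FPKM in the hormone libraries and 1.502, 0.561 and 0.933 FPKM in the yeast-only libraries. Both the highest and the lowest of these came from yeast-only libraries, so the groups overlapped fully. The means were 1.196 ± 0.353 and 0.998 ± 0.474 FPKM (SD, n = 3 each), and the difference of 0.15 had a 95% interval of -0.40 to 0.70 (adjusted p = 0.988 in limma). Without yeast-only replicate 2 the difference was -0.02. Coverage was 2.73 to 7.50 reads per base, against at least 140.4 for PECS-1.1 and was the lowest of the members. The gene passed the filter on its mean over all 6 libraries, while its yeast-only mean lay just under 1 FPKM. Its transcript, NM_001288917.1, has 2 exons and 1890 bases, on the plus strand of NC_023049.1 from 4121617 to 4124777.

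Summed over the 3 genes, pectinesterase transcripts stood at 727, 975 and 958 FPKM in the hormone libraries and at 379, 483 and 427 FPKM in the yeast-only libraries. PECS-2.1 made up 92.8%, 93.5% and 95.8% of this sum with salicylic acid and 90.6%, 93.3% and 91.9% without, so the total follows that gene, while its share of the total overlapped between the groups. The level of PECS-2.1 over that of PECS-1.1 was 13.2, 14.6 and 23.6 with salicylic acid and 10.1, 14.3 and 11.6 without, which overlapped as well. All 3 belong to a multigene family, and the treatment of reads that match several of its copies is unknown here, so single-gene values are uncertain to that extent. No transcript of another gene in the tables overlaps a member on either strand.

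The inhibitor gene, LOC102624882, differed in the other direction, and its spread was unequal between the groups. It stood at 55.7, 50.5 and 50.8 FPKM in hormone replicates 1 to 3 and at 119, 49.2 and 80.9 FPKM in yeast-only replicates 1 to 3. The hormone libraries were nearly alike, the yeast-only libraries spanned 2.42-fold, and yeast-only replicate 2 was the lowest of all 6. The means were 52.3 ± 2.91 and 83.1 ± 35.1 FPKM (SD, n = 3 each). The difference was -0.57 (SE 0.27), its 95% interval reached from -1.18 to 0.04, and its adjusted p was 0.960 in limma. That SE, interval and p take the spread as equal in both groups, which the SDs here were not. It was -0.27 without yeast-only replicate 1 and -0.90 without yeast-only replicate 2, so its size depends on those libraries. Yeast-only replicate 1 also had the lowest depth, 4.11 gigabases, the lowest PECS-2.1 level and the highest PME4 level, and the part of depth in these values was not tested. The gene has 1 exon, in NM_001320069.1 of 935 bases, on the minus strand of NC_023050.1 from 6367397 to 6368331.

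Within each library, the balance of enzyme and inhibitor transcripts was taken as the ratio of their FPKM, which a change of scale between libraries does not alter. Whether the product of LOC102624882 inhibits these pectinesterases, invertase or both was not tested. The 3 pectinesterases together stood at 13.1, 19.3 and 18.9 times the level of the inhibitor gene in hormone replicates 1 to 3 and at 3.18, 9.83 and 5.28 times in the yeast-only libraries. Every hormone library was above every yeast-only library, the nearest 2 being hormone replicate 1 and yeast-only replicate 2. The mean ratios were 17.1 ± 3.48 and 6.09 ± 3.40 (SD, n = 3 each). On the log2 scale the means were 4.07 ± 0.32 and 2.45 ± 0.82 (SD, n = 3 each), a difference of 1.62, or 3.07-fold. This difference was 1.22 without yeast-only replicate 1 and 2.04 without yeast-only replicate 2, the range over all 6 libraries left out in turn. A ratio over members chosen with results known is given with no p.

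The same ratio was then taken for each pectinesterase alone. For PECS-1.1 it was 0.921, 1.23 and 0.767 with salicylic acid and 0.286, 0.643 and 0.417 without, so this gene lay on both sides of the inhibitor's level in the former and below it in each of the latter. For PME4 it was 0.0245, 0.0284 and 0.0156 with and 0.0126, 0.0114 and 0.0115 without salicylic acid. The groups did not overlap for PECS-2.1, PECS-1.1 or PME4 over the inhibitor, although they overlapped for PME4 alone and for the inhibitor alone. Of the 17354 other genes tested, 17.6% had a ratio to the inhibitor gene that was higher in every hormone library, so a ratio to this gene without overlap is common in these data. The 17226 genes above 0 in every library were ordered from the most positive log2 difference in that ratio, with no 1 added to FPKM. A shared denominator leaves this order as it is. PECS-2.1 ranked 172, PECS-1.1 ranked 770 and PME4 ranked 2261, and the median difference was 0.60.

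**Figure D2:**
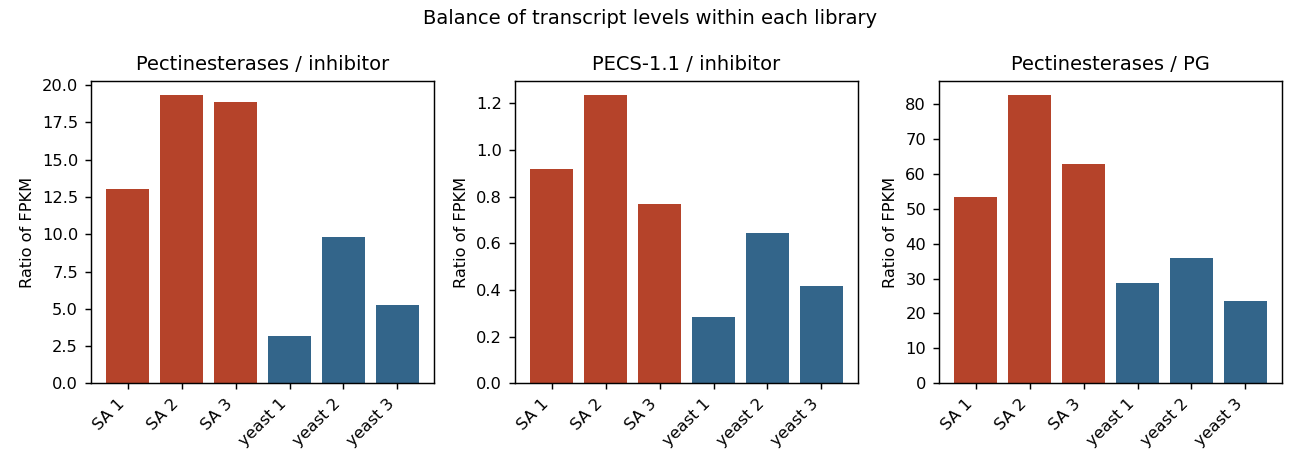
Ratios of FPKM within each library (y axis, linear from 0, bars are single libraries, SA for yeast with salicylic acid) for the 3 pectinesterases over the inhibitor gene, PECS-1.1 over the inhibitor gene, and the 3 pectinesterases over PG. In each panel the lowest bar with salicylic acid is above the highest in the yeast-only libraries, for the first panel 13.1 against 9.83.

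PG, whose product cuts demethylated pectin chains, had overlapping groups and a small difference. It stood at 13.6, 11.8 and 15.2 FPKM in the hormone libraries and at 13.2, 13.5 and 18.2 FPKM in the yeast-only libraries. The highest value was yeast-only replicate 3 and the lowest hormone replicate 2, while of the other 4 libraries both hormone values lay above both yeast-only values. The means were 13.6 ± 1.70 and 14.97 ± 2.78 FPKM (SD, n = 3 each), and the difference of -0.13 had a 95% interval of -0.51 to 0.26 (adjusted p = 0.979 in limma). Without yeast-only replicate 3 it was 0.01. Pectinesterase transcripts stood at 53.3, 82.4 and 62.9 times the level of PG with salicylic acid and at 28.6, 35.7 and 23.5 times in the yeast-only libraries, groups that did not overlap. Of all other genes tested, 6.27% had a ratio to PG that was higher in every hormone library.

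PG was the 1 member with more than 1 transcript. Both lie on the minus strand of NC_023046.1, NM_001288908.1 of 9 exons and 1673 bases from 15886022 to 15890400, and the predicted XM_006465293.3 of 10 exons and 1638 bases from 15886047 to 15890423. The former was at 11.0, 11.8 and 14.1 FPKM in the hormone libraries and 9.01, 13.5 and 16.4 FPKM without. The latter was at 2.61, 0 (as listed) and 1.13 FPKM in the hormone and 4.21, 0.0482 and 1.78 FPKM in the yeast-only libraries. Its share of the PG total was 19.1%, 0% and 7.43% with salicylic acid and 31.8%, 0.357% and 9.79% without. The share was highest in replicate 1 and at or near 0 in replicate 2 of each group. The spread within a group was larger than the difference between the means of 8.86% ± 9.65 and 14.0% ± 16.2 (SD, n = 3 each). At each replicate number the share was lower with salicylic acid, but the labels do not say that equal numbers pair the samples. In limma over 26605 transcripts, the differences were -0.04 (95% interval -0.60 to 0.52, adjusted p = 0.992) and -0.33 (95% interval -2.01 to 1.35, adjusted p = 0.973). With replicate number as a block in limma, the SE of the latter was 0.27 against 0.70 without (adjusted p = 0.879 with the block). The transcripts cover nearly the same region, the less abundant had a coverage of 0 to 17.3 reads per base, and without 1 library the sign of either difference turned (0.14 for the former without yeast-only replicate 3 and 0.21 for the latter without yeast-only replicate 1).

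**Figure D3:**
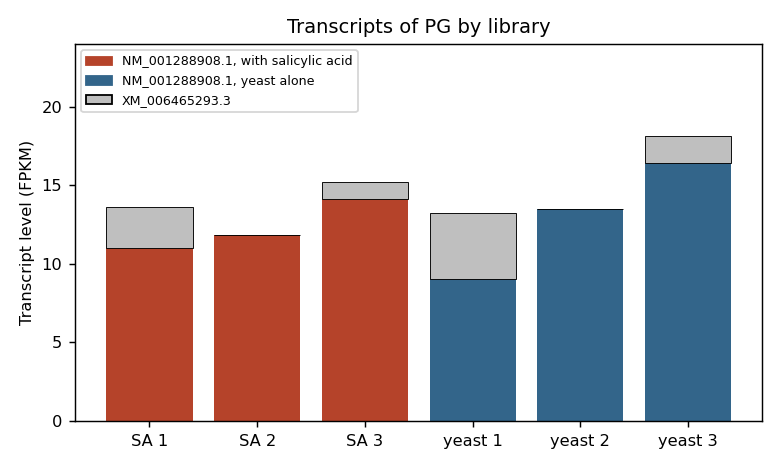
Level in FPKM of the 2 transcripts of PG in each library (stacked bars from 0; coloured, NM_001288908.1; grey, XM_006465293.3; SA for yeast with salicylic acid). The grey part is 4.21 FPKM in yeast-only replicate 1 and 0 in hormone replicate 2.

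EXP2, of the wall-loosening expansins, was abundant and uneven among replicates. It stood at 348, 291 and 160.4 FPKM in hormone replicates 1 to 3 and at 329.7, 216 and 248 FPKM in the yeast-only libraries. The group with salicylic acid held both the highest and the lowest of the 6 values and spanned 2.17-fold, against 1.36-fold for PECS-2.1 in the same libraries. In hormone replicate 3 EXP2 was at its lowest, while PECS-2.1 was nearly alike in hormone replicates 2 and 3 (911 and 918 FPKM). The means were 266 ± 96.2 and 265 ± 58.6 FPKM (SD, n = 3 each). The difference was -0.04 with a 95% interval of -0.68 to 0.60 (adjusted p = 0.998 in limma), and it was 0.29 without hormone replicate 3 and 0.13 without yeast-only replicate 1. The interval includes differences of more than 1.5-fold in either direction, so equal levels were not shown. Its transcript, NM_001288851.1, has 3 exons and 1051 bases, on the plus strand of NC_023052.1 from 29960546 to 29961793.

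Of the 6 members, 3 had a positive and 3 a negative difference, and 0 passed the threshold in limma over all genes, where 0.00576% of genes did (1 of 17355). An unadjusted p under 0.05 was reached by 2 members, PECS-2.1 and PECS-1.1, against 5.23% of all genes. The same 2 had groups that did not overlap, both higher with salicylic acid, against 10.2% of all genes in either direction and 5.68% in that direction. Because the members were chosen with earlier results of these data known, their counts cannot be tested against these shares. The median difference of the members was 0.05, and that of all genes tested was 0.02. Of the members' 7 transcripts, limma called 0 and gave 2 an unadjusted p under 0.05, where 0.0338% of all transcripts passed and 5.18% reached that unadjusted p. The members also differed in how far replicates spread around their group means. The residual SD on the log2 scale was 0.23 for PECS-2.1, 0.24 for PECS-1.1, 0.21 for PG, 0.30 for PME4, 0.45 for the inhibitor gene and 0.47 for EXP2, and its median over all genes was 0.22. The plot of differences with their intervals sets the members side by side, and the plot with 1 library left out shows which signs rest on single libraries.

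**Figure D4:**
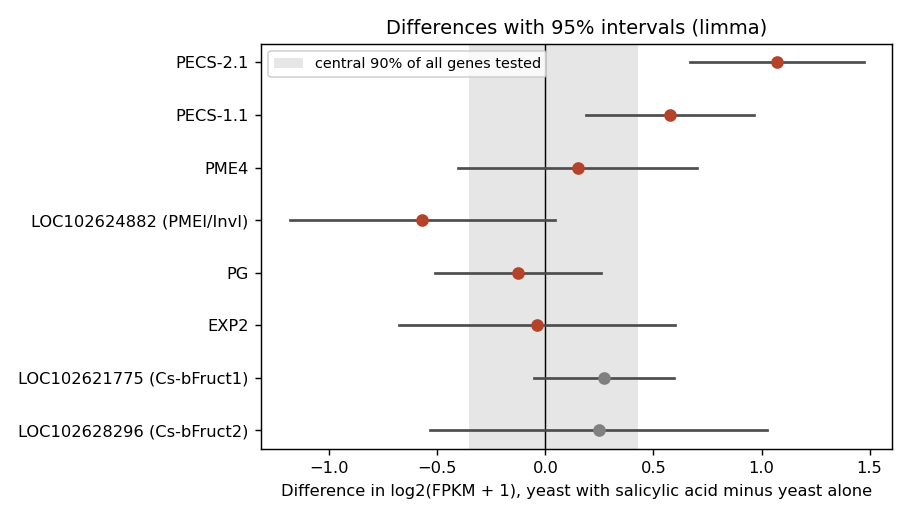
Difference in log2(FPKM + 1), yeast with salicylic acid minus yeast alone (x axis), with 95% intervals from limma, for the 6 members (red) and 2 invertase genes (grey points); the grey band holds the central 90% of all genes tested. The intervals of PECS-2.1 (0.67 to 1.47) and PECS-1.1 (0.19 to 0.97) lie above 0, and the other 6 include it.

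**Figure D5:**
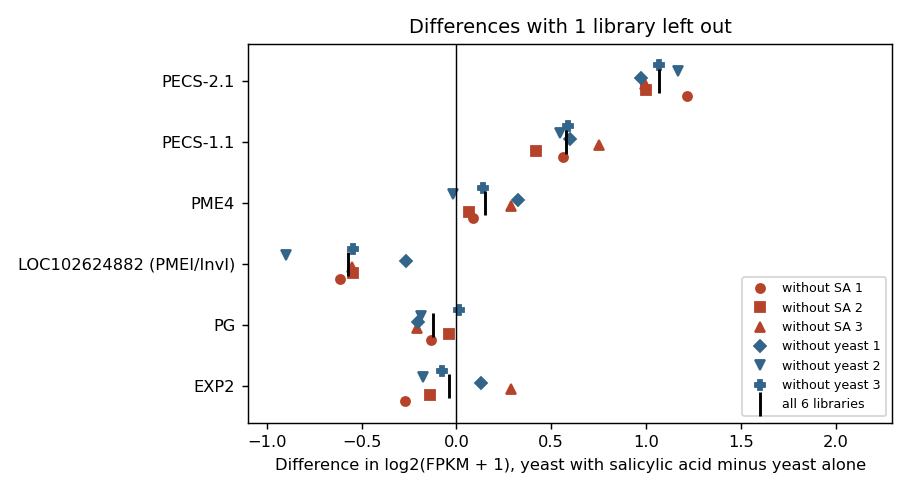
Difference in log2(FPKM + 1), yeast with salicylic acid minus yeast alone (x axis), for each member with all 6 libraries (black line) and with 1 library left out (symbols; red, a hormone library left out, and blue, one of the yeast-only libraries). PECS-2.1 keeps within 0.97 to 1.22, while PME4, PG and EXP2 have symbols on both sides of 0.

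No other wall gene could be added by name, since the names of pectinesterases, polygalacturonases, pectate lyases, expansins, xyloglucan and cellulose enzymes searched in the symbols and synonyms matched the 6 members and 0 further genes. The synonym of the inhibitor gene also names invertase, the enzyme that splits sucrose, and 2 invertase genes carry a name. Cs-bFruct1 (LOC102621775) was at 24.4, 32.4 and 27.8 FPKM in the hormone libraries and 21.4, 24.5 and 23.4 FPKM without, a difference of 0.27 (95% interval -0.05 to 0.59, adjusted p = 0.960 in limma) that was 0.17 without hormone replicate 2. Cs-bFruct2 (LOC102628296) was at 51.9, 94.3 and 85.9 FPKM in the hormone and 37.4, 100.5 and 66.2 FPKM in the yeast-only libraries, a difference of 0.25 (95% interval -0.53 to 1.03, adjusted p = 0.980 in limma). Its sign turned without yeast-only replicate 1 (-0.12), and leaving out another library gave 0.08, 0.15 and 0.51 (hormone replicates 2, 3 and 1) and 0.58 (yeast-only replicate 2). In both invertase genes the groups overlapped, for Cs-bFruct1 by the margin between 24.4 and 24.5 FPKM. Of the 2, 0 passed the threshold, against the 0.00576% of all genes. In yeast-only replicate 1, where the inhibitor gene was highest, both were at their lowest.

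Likeness of pattern was measured as Pearson's r of log2(FPKM + 1) over the 6 libraries, against 82 other nuclear genes with a name. The genes most like PECS-2.1 were Cs-bFruct1 (0.88), CYP707A1, which breaks down abscisic acid (0.78), and MYB8, named as a MYB transcription factor (0.75). Those most like the inhibitor gene were AP1, named as a MADS-box transcription factor (0.92), the dehydrin gene DHN (0.89) and HMG (0.88). With only 6 libraries, other genes reached such values too. Among the 17355 genes tested, 268 were at least as like PECS-2.1 as Cs-bFruct1, 903 as CYP707A1 and 1110 as MYB8. For the inhibitor gene, 118 were at least as like it as AP1, 240 as DHN and 271 as HMG. AP1 stood at 10.3 FPKM in yeast-only replicate 1 and between 6.15 and 7.11 FPKM in the other 5 libraries, and the inhibitor gene was highest in the same library.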

How the data were processed

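The members and the name lists were chosen with earlier results of these data known. RNA of 6 albedo libraries was sequenced on an Illumina HiSeq instrument, per the labels' protocols; the aligner, assembler and genome build were not given in the sources used here. For every transcript, the authors' tables give, per the file headers, FPKM and mean coverage, for each library by itself. Coverage as deposited is a signal that carries no normalization, and FPKM is a fixed multiple of it in each library. A deposited gene table holds a score per gene in a unit of its own, used as an alternative.

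Groups and replicate numbers came from the sample titles. Transcript FPKM was summed by gene name and 1 was added before log2 values were taken, except in ratios of levels. The test was limma's (version 3.58.1, R version 4.3.3, package data.table version 1.17.8), two-sided and with a mean-variance trend, for genes or transcripts with a mean FPKM of at least 1. Benjamini-Hochberg adjustment ran over all features, the threshold was 0.05, and the method was tested on simulated data. Tables and figures were made with Python 3.11.15, pandas 2.3.3 and matplotlib 3.10.9. The tables give no read counts, so no counting intervals are given. Symbols and synonyms came from a RefSeq gene table of assembly DVS_A1.0, which matched 23518 of 31688 gene names, and no coordinates were taken from it. Genes named are the members, invertases by name, and the 3 named genes most like PECS-2.1 and the inhibitor gene. A planned list of relatives by protein sequence was not made, as no protein table was used here. The ratio to PG was added after the data were seen. Alternatives were the pseudocount, the filter, scaling, each library left out, a replicate block, annotated transcripts only and the deposited gene table.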

Additional observations from a re-analysis of the deposited data

How the results depend on the processing

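None of the 6 members passed the threshold in limma under the 14 alternatives that were run (PME4 is not in the filter at a mean FPKM of at least 5). With 1 library left out, the differences were 0.97 to 1.22 for PECS-2.1, 0.42 to 0.75 for PECS-1.1, -0.90 to -0.27 for the inhibitor gene, -0.0151 to 0.33 for PME4, -0.21 to 0.0134 for PG, -0.27 to 0.29 for EXP2, 0.17 to 0.36 for Cs-bFruct1 and -0.12 to 0.58 for Cs-bFruct2. For the PG transcripts they were -0.26 to 0.14 (NM_001288908.1) and -0.95 to 0.21 (XM_006465293.3), and for those of PME4 and EXP2 as for the genes. Adjusted p-values of PECS-2.1 ranged from 0.244 to 0.9998 over the alternatives. The log2 balance of pectinesterase over inhibitor was 1.22 to 2.04, and over PG 1.005 to 1.33, with 1 library left out. With PECS-2.1 alone as the enzyme the former was 1.65. All member transcripts are annotated, so that restriction leaves their levels as they are.

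Over all genes, 1 passed; this was 2 with the deposited gene table, a pseudocount of 0.1 or the replicate block, 1 to 5 with 1 library left out (5 without replicate 2 of the yeast-only libraries), and 0 in limma with annotated transcripts only (806 at an unadjusted p under 0.05). Of transcripts, 9 passed; this was 5 without a filter or with a pseudocount of 0.1, 4 where the mean FPKM had to reach 5, 0 in limma with the replicate block (1475 at an unadjusted p under 0.05), and 1 to 28 with 1 library left out (28, 4 and 1 on leaving out hormone replicate 1, 2 or 3). The causes were not tested. The labels do not say that equal replicate numbers pair the samples. For libraries of equal number, deviations from the group means correlated at 0.11, 0.19 and -0.01, and not every library correlated best with its own number. With the replicate block the difference of PECS-2.1 had an adjusted p of 0.244 in limma. Precision is limited by the 3 libraries per group, and the coverage of PME4 was low.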

Other observations

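The authors' deposited table orders the members differently from the summed FPKM. In the authors' deposited table PG lies between 275 and 421, above EXP2 at 109 to 237 and below PECS-2.1 at 377 to 1011, whereas by FPKM PG is the fifth of the 6. FPKM times transcript length, summed over a gene and set against its value in the authors' deposited table, gave a divisor that was the same in all 6 libraries for each member. This divisor was 72 for PG, whose transcripts have 1673 and 1638 bases, 807 for PECS-1.1 of 1967 bases and 1546 for EXP2 of 1051 bases, while for the inhibitor gene, of 935 bases, it was 924. Values of the authors' deposited table therefore compare libraries within a member, but not members with each other.

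The level of EXP2 over the summed pectinesterases was 0.478, 0.298 and 0.167 in hormone replicates 1 to 3 and 0.871, 0.447 and 0.580 in yeast-only replicates 1 to 3. The groups overlapped, through hormone replicate 1 and yeast-only replicate 2.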
